A study of Mus musculus with 6 samples.

Results

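The IL-2, IL-4, IL-7, IL-15 and IL-21 receptors that share the common gamma chain, the IL-6 receptor with its gp130 subunit and the beta 1 chain of the IL-12 receptor were followed through RNAseq of activated mouse CD4+ T cells. The 10 receptor chain genes were taken by name from the 23420 genes of the deposited table (*Il2ra*, *Il2rb*, *Il2rg*, *Il4ra*, *Il7r*, *Il15ra*, *Il21r*, *Il6ra*, *Il6st* and *Il12rb1*), and all 10 were among the 10607 genes with enough counts to be tested. CD4+CD62L+ T cells were purified with magnetic beads from spleens of Balb/c mice aged 12 weeks and stimulated on plate-bound antibodies to CD3 and CD28, and after 24 h they received shRNA lentivirus. Fresh medium followed 24 h later, polyadenylated RNA was taken after a further 48 h, and all 6 libraries share these steps. The labels say that this medium held IL-2, whereas the study's methods describe Th0 cultures as lacking added IL-2, so whether IL-2 was present, which bears on the levels of its receptor chains and of *Il7r*, is not settled here. The 3 groups of 2 libraries were control shRNA (Scrmblr, hereafter control), the same control shRNA with harmine at 3.7 µM, and *Dyrk1a* shRNA without harmine. Harmine is a plant alkaloid that inhibits DYRK1A, a dual-specificity kinase. The study lists further targets of harmine, among them monoamine oxidase A and the CLK kinases. The comparisons ask how this inhibitor and an shRNA directed at *Dyrk1a* each left these receptor transcripts, and whether the treatments differed. Which of several shRNA sequences entered these libraries and how many cells carried the virus are not given in the sources used here. Nor is it said that the paired libraries of a group came from separate mice or cultures, so that p-values measure only the spread between these libraries, which may be technical.

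Cytokine receptors of this class hold no kinase of their own. A ligand brings the chains together, Janus kinases bound to their cytoplasmic tails phosphorylate each other and the chains, and STAT factors then dock, are phosphorylated and enter the nucleus. The common gamma chain, encoded by *Il2rg*, pairs with JAK3 and is shared by all of the gamma chain cytokines, while gp130, encoded by *Il6st*, transmits the signal of IL-6 and its relatives. In T cells IL-2 acts mainly through STAT5 and sustains growth, IL-7 sustains resting cells, IL-4 acts through STAT6, and IL-6 and IL-21 act largely through STAT3.

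The feature that most of these chains share is the WSXWS motif, which lies in the extracellular part of class I cytokine receptors. A search of the coding sequences of GENCODE M21 for the motif in frame found it in 8 of the 10 genes and in 74 of 21901 genes with a coding transcript, or 0.338%. The exceptions were *Il2ra* and *Il15ra*, the alpha chains of the IL-2 and IL-15 receptors, which bind ligand through sushi domains instead. A gene counted if any of its coding transcripts held the motif. It was in 1 of 3 coding transcripts of *Il4ra*, 6 of 9 of *Il6st* and 2 of 3 of *Il12rb1*, and in all of those of the other genes with it. The stretches around the motif are shown because they set these 8 chains apart from the sushi-domain alpha chains. Each is read 5′ to 3′ on the strand of the transcript, with the 15 bases of the motif in capitals.
Il2rb: gggaccTGGAGTCCCTGGAGCcagccc
Il2rg: caacagTGGAGTAAATGGAGCcagcct
Il4ra: ggcaccTGGAGTGAGTGGAGTcctagc
Il7r: ggcttcTGGAGCGAGTGGAGTccaagt
Il21r: gggaccTGGAGTGAGTGGAGTgacccc
Il6ra: ggccagTGGAGCGAATGGTCCccagag
Il6st: ggctacTGGAGTGACTGGAGTgaggag
Il12rb1: ggtcccTGGAGTGATTGGAGCatgcct
Each stretch lay within 1 coding exon of the GRCm38 (mm10) annotation. On the minus strand they were at chr15:78485757-78485783 for *Il2rb*, chrX:101266209-101266235 for *Il2rg*, chr15:9511145-9511171 for *Il7r* and chr3:89885924-89885950 for *Il6ra*. On the plus strand they were at chr7:125571548-125571574 for *Il4ra*, chr7:125628992-125629018 for *Il21r*, chr13:112490591-112490617 for *Il6st* and chr8:70813736-70813762 for *Il12rb1*.

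Several of the genes are neighbours in the genome. *Il2ra* (chr2:11642807-11693193) and *Il15ra* (chr2:11705290-11734317) lie on the plus strand 12.1 kb apart, and *Il4ra* (chr7:125552120-125579474) and *Il21r* (chr7:125603429-125633570) lie on the plus strand 24.0 kb apart, with no protein-coding gene between the members of either pair. *Il2rb* (chr15:78479256-78495271) and *Il7r* (chr15:9505788-9530176) share a chromosome and the minus strand but are far apart. The expected counts of *Il2ra*, *Il21r* and *Il7r* held fractions in 6, 5 and 4 libraries, which arise where RSEM divides a read, while those of the other 7 genes were whole to within 0.01.

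The libraries held 1096387 to 3747699 counts, with the controls the shallowest, and the 10 receptor genes took between 0.274% and 0.400% of them. *Dyrk1a*, the target of the shRNA, stood at 58.4 and 82.7 CPM in the controls (CPM being counts scaled to library size with TMM factors), at 74.8 and 77.6 with harmine and at 60.2 and 61.9 in the libraries labelled *Dyrk1a* shRNA. The latter lay between the 2 controls, and the log2 fold change of -0.19 (SE 0.21) did not pass (edgeR quasi-likelihood test with Benjamini-Hochberg adjustment, adjusted p = 0.835), so a lower level of the target was not shown. Markers of CD4+ T cells (8 of 9 in the table) summed to between 2852 and 3156 CPM in every library. Markers of CD8+ T and NK cells summed to 54.0 to 116 CPM in the controls, 57.0 to 68.9 with harmine and 68.4 to 71.6 with *Dyrk1a* shRNA. Markers of B cells summed to 38.2 to 49.9, 32.9 to 36.0 and 42.0 to 46.5 CPM in the same order, those of myeloid cells (9 of 10 in the table) to 22.8 to 45.9, 21.4 to 31.7 and 19.2 to 31.9, and those of erythroid cells and platelets (7 of 9, *Hba-a2* at 0 in every library) to 22.8 to 32.6, 18.5 to 18.8 and 18.0 to 23.6. Tested were 8, 6, 6, 3 and 3 markers of these cell types, in the order given, and the rest had too few counts. None of those tested passed the adjusted test in any comparison, which does not show that the groups held the same mix of cells. The 2 controls differed most from each other, with a median absolute log2 difference of 0.36 over all genes against 0.21 in each of the other groups. Over the receptor genes the same medians were 0.39, 0.29 and 0.17 for control, harmine and *Dyrk1a* shRNA.

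Levels of the receptor chains spanned a wide range and fell into tiers. Per length, as CPM per kb of merged exon, *Il2ra* (CD25, the alpha chain that gives the IL-2 receptor its high affinity) was highest, at a mean of 266 over the 6 libraries (range 233 to 318), above 98.4% of the tested genes with a length. *Il2rb* (CD122, shared by the IL-2 and IL-15 receptors) followed at 142 (128 to 153), *Il2rg* at 110 (94.8 to 132), *Il4ra* (the ligand-binding chain for IL-4) at 95.4 (71.8 to 111) and *Il21r* (the ligand-binding chain for IL-21) at 60.1 (44.9 to 75.4). A middle tier held *Il12rb1* (the chain shared by the IL-12 and IL-23 receptors) at 11.8, *Il6ra* (the ligand-binding chain for IL-6) at 11.3 and *Il7r* (CD127, the alpha chain for IL-7) at 11.2 CPM per kb, each above 64.7% to 66.1% of tested genes. *Il15ra* at 2.30 and *Il6st* at 1.35 CPM per kb were lowest, above 21.5% and 11.2% of tested genes.

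The range over libraries of *Il2ra* did not overlap with that of *Il2rb*, nor did *Il21r* overlap with *Il12rb1*, *Il7r* with *Il15ra*, or *Il15ra* with *Il6st*. The other neighbours had ranges that overlapped. Among them *Il4ra* exceeded *Il21r* in 6 of 6 libraries, *Il2rb* exceeded *Il2rg* in 5, *Il2rg* exceeded *Il4ra* in 5, *Il6ra* exceeded *Il7r* in 4 and *Il12rb1* exceeded *Il6ra* in 3. With the length of the longest transcript in place of merged exons, *Il2rg* moved above *Il2rb* (157 against 145 CPM per kb) and *Il7r* above *Il6ra* (14.7 against 11.3). The order also rests on dividing by length at all. In plain CPM the group means of *Il4ra* (511, 593 and 614 for control, harmine and *Dyrk1a* shRNA) lay above those of *Il2rg* (295, 245 and 247). Those of *Il6st* (13.1, 17.2 and 14.6) lay above those of *Il15ra* (8.93, 10.9 and 10.9). Those of *Il6ra* (89.6, 109 and 95.6) lay above those of *Il12rb1* (45.0, 38.9 and 62.0). *Il2ra* alone made up 34.2% to 40.9% of the summed level per kb of the 10 genes. In bulk RNA, fewer cells with a transcript and less of it per cell cannot be told apart, here and in all values that follow.

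**Figure D1:**
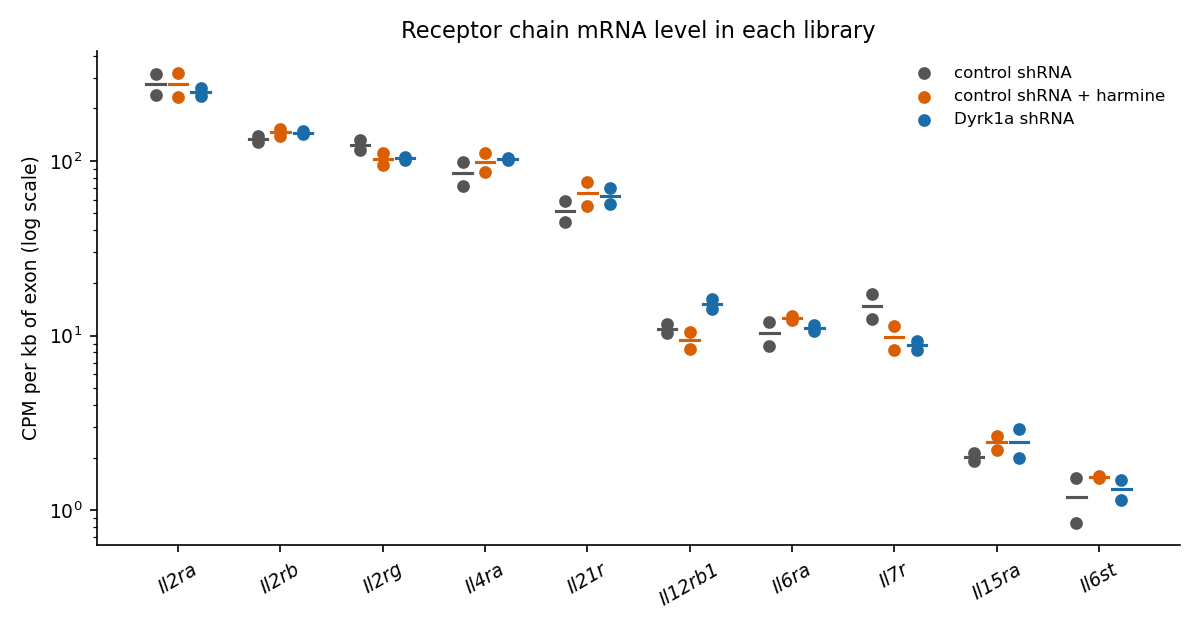
Level of each receptor chain gene per library, as TMM-scaled CPM per kb of merged exon on a log axis, with genes in order of their mean; points are libraries, coloured by group. *Il2ra* lies between 233 and 318 CPM per kb in all 6 libraries, while *Il15ra* and *Il6st* lie below 3 CPM per kb.

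With harmine no receptor gene reached the adjusted threshold, and *Il7r* came nearest. In the edgeR test with Benjamini-Hochberg adjustment 0 of 10 passed, beside 0.00943% of all genes tested, and DESeq2's Wald test also called 0. At an unadjusted p under 0.05, 1 of 10 was counted (*Il7r*), beside 5.30% of all genes. The groups did not overlap for 5 of 10 genes, beside 32.3% of all genes, with 3 higher under harmine (*Il15ra*, *Il6ra*, *Il6st*; 16.4% of all genes) and 2 lower (*Il2rg*, *Il7r*; 15.9%). The median log2 fold change of the 10 genes was 0.17, beside -0.02 over all genes, and 6 were above 0, beside 47.5% of all genes. That median was 0.01 without control replicate 1 and 0.27 without harmine replicate 1.

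*Il7r* had the smallest p of the receptor genes in this comparison. Its level was 58.2 and 80.2 CPM under control shRNA, from 93 and 95 counts, and 38.8 and 53.3 CPM when harmine was added, from 130 and 202 counts. Both harmine libraries lay below both controls, although the higher of them came close to the lower control. The log2 fold change was -0.57 (SE 0.23, 95% interval -1.06 to -0.09), a fold of 0.672, with an unadjusted p of 0.0232 and an adjusted p of 0.905 in edgeR's quasi-likelihood test. Without control replicate 2 the unadjusted p was 0.185, and without harmine replicate 1 it was 0.217.

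Differences between the chains of the IL-2 receptor in their response to harmine were not tested, and their intervals overlapped. *Il2ra* stood at 1357 and 1792 CPM in control libraries, and at 1332 and 1814 CPM in harmine libraries, so that each group held a low and a high library and the log2 fold change was 0.00 (95% interval -0.57 to 0.57). *Il2rb* stood at 549 and 597 against 594 and 655 CPM, overlapping by a narrow margin, with a log2 fold change of 0.12 (SE 0.21). *Il2rg* was at 314 and 275 CPM without harmine against 226 and 265 CPM in its presence, with no overlap and a log2 fold change of -0.27 (SE 0.18, adjusted p = 0.938 with edgeR). *Il15ra*, which presents IL-15, rested on 10 to 45 counts per library, and its log2 fold change of 0.28 had an SE of 0.38.

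The neighbours *Il4ra* and *Il21r* both had values above 0. *Il4ra* stood at 431 and 590 CPM without harmine against 519 and 668 CPM in its presence, and *Il21r* at 149 and 195 against 184 and 251 CPM. In both genes the second control lay above the first harmine library, and the log2 fold changes were 0.22 (SE 0.23) and 0.34 (SE 0.21, adjusted p = 0.928 with edgeR). The chains of the IL-6 receptor were higher in both harmine libraries than in both controls, *Il6ra* at 105 and 112 CPM against 75.3 and 104, and *Il6st* at 17.0 and 17.4 CPM against 9.41 and 16.9. Their log2 fold changes of 0.29 (SE 0.20) and 0.43 (SE 0.34) came with a low first control in both genes, while the second control lay just below the lower harmine library. *Il12rb1* overlapped, at 47.7 and 42.2 CPM without harmine against 34.6 and 43.3 CPM in its presence (log2 fold change -0.21, SE 0.22). Without control replicate 2, *Il4ra*, *Il21r*, *Il6ra* and *Il6st* had log2 fold changes of 0.46, 0.54, 0.53 and 0.87, each with an unadjusted p under 0.05 and none with an adjusted p under it. Without control replicate 1 the same genes had values of 0.00, 0.15, 0.06 and 0.02, with unadjusted p of 0.495 or more in the same edgeR test, so that these values depended on which control was used.

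**Figure D2:**
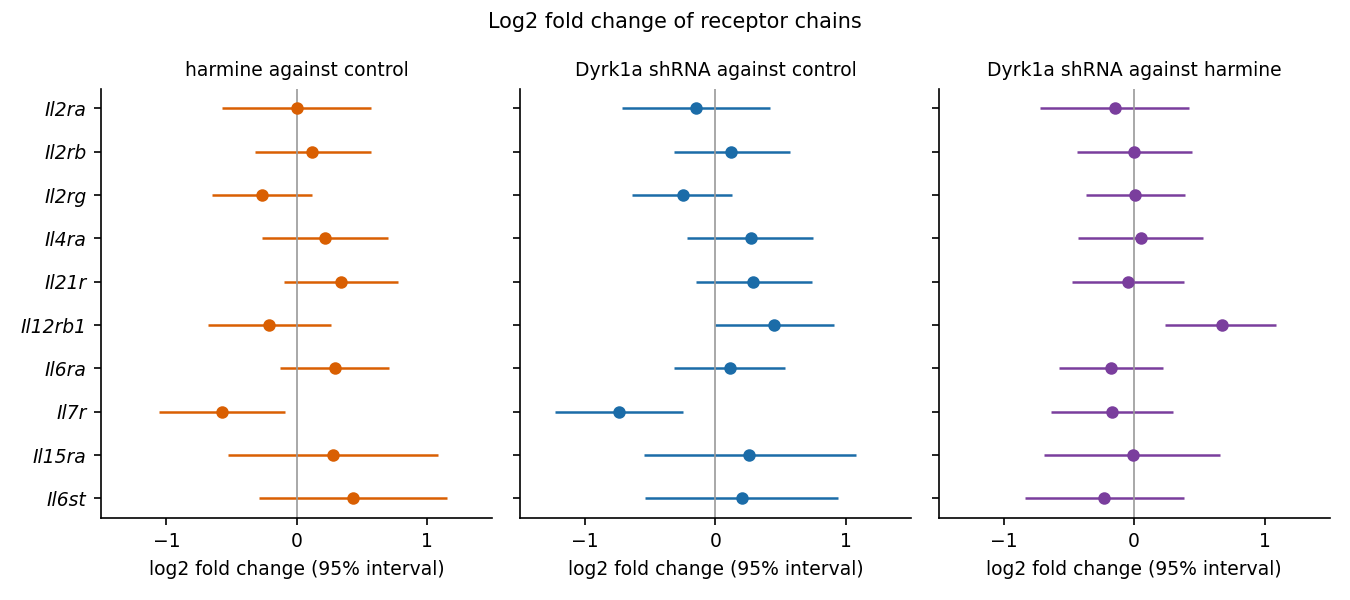
Log2 fold change of the 10 receptor chain genes in each of the 3 comparisons, with 95% intervals from the edgeR fit. The intervals of *Il7r* lie below 0 against control in both comparisons, that of *Il12rb1* lies above 0 for *Dyrk1a* shRNA against harmine (0.24 to 1.09), and no gene passed after adjustment over all genes.

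With *Dyrk1a* shRNA against the same 2 controls, 0 of 10 receptor genes passed the adjusted edgeR test, beside 0.0189% of all genes, and DESeq2's Wald test again called 0. At an unadjusted p under 0.05, 1 of 10 was counted (*Il7r*), beside 7.69% of all genes. For 5 of 10 genes the groups did not overlap, beside 35.4% of all genes, with *Il2rb*, *Il4ra* and *Il12rb1* higher (18.5% of all genes) and *Il2rg* and *Il7r* lower (16.9%). The median log2 fold change was 0.16, beside -0.01 over all genes, and 7 of 10 were above 0, beside 48.3%. Without control replicate 1 the median was -0.04, and without control replicate 2 it was 0.27. Because both treatments were set against the same controls, the values of the 2 comparisons are not independent and are given side by side only.

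*Il7r* was again the receptor gene with the smallest p. It stood at 38.4 and 43.6 CPM in the libraries labelled *Dyrk1a* shRNA, from 100 and 148 counts, against 58.2 and 80.2 CPM in the controls. These 2 libraries lay close together and well under the lower control. The log2 fold change was -0.74 (SE 0.23, 95% interval -1.23 to -0.25), a fold of 0.599, with an unadjusted p of 0.00578 that ranked 89 among all genes and an adjusted p of 0.612 with edgeR.

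*Il12rb1* stood at 66.3 and 57.8 CPM with *Dyrk1a* shRNA, from 173 and 196 counts, and at 47.7 and 42.2 CPM in the controls, from 76 and 50 counts. Both libraries were above both controls, with a log2 fold change of 0.45 (SE 0.22), a fold of 1.37 and an adjusted p of 0.645 with edgeR. *Il4ra* was at 605 and 624 CPM, just above the second control at 590 CPM and well above the first at 431 CPM (log2 fold change 0.27, SE 0.23). *Il2rg* was at 242 and 253 CPM, below both controls (log2 fold change -0.25, SE 0.18).

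The other chains gave values near 0 or wide intervals. *Il2ra* was at 1342 and 1489 CPM, with the first library below both controls and the second between them (log2 fold change -0.15, 95% interval -0.72 to 0.42), and *Il2rb* at 607 and 641 CPM (0.12, -0.32 to 0.57). *Il21r* was at 231 and 189 CPM, on either side of the second control at 195 (0.29, SE 0.21). *Il6ra* at 92.0 and 99.3 CPM and *Il6st* at 12.6 and 16.5 CPM lay between the controls in both libraries, with log2 fold changes of 0.11 (SE 0.20) and 0.20 (SE 0.35). *Il15ra* was at 13.0 and 8.84 CPM, from 34 and 30 counts, and its value of 0.26 had an SE of 0.39.

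**Figure D3:**
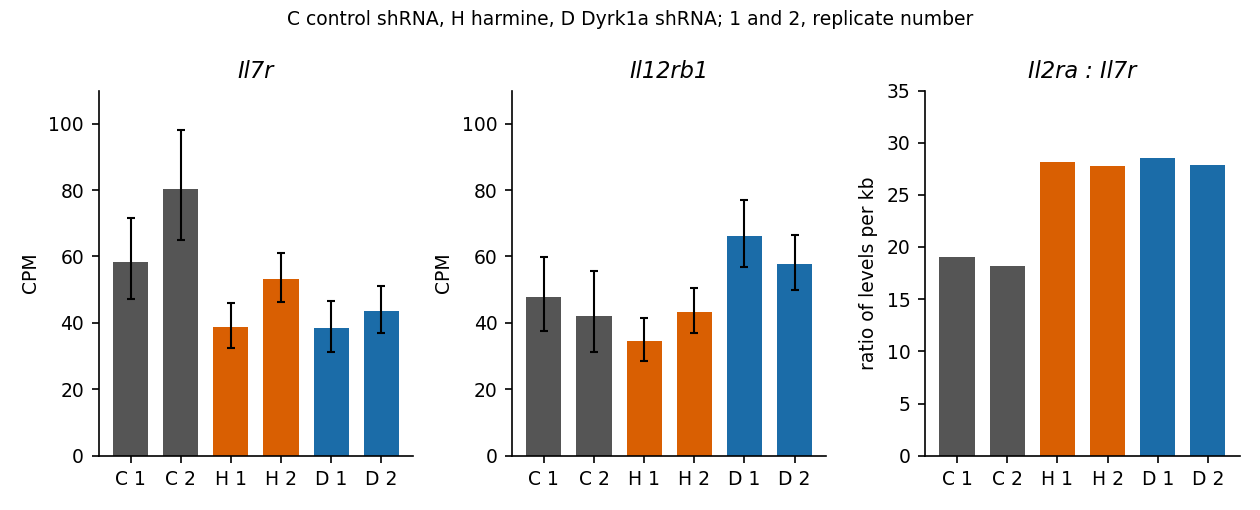
Level of *Il7r* and *Il12rb1* in each library (bars, TMM-scaled CPM, axis from 0) with the exact Poisson 95% interval of the count. The last panel gives the ratio of *Il2ra* to *Il7r* per kb in each library. *Il7r* is at 58.2 and 80.2 CPM in the controls and at 38.4 to 53.3 CPM in the 4 other libraries, and *Il12rb1* is above 57 CPM only in the *Dyrk1a* shRNA libraries.

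Set against each other, the 2 treatments differed most among the receptor genes in *Il12rb1*, the chain through which IL-12 and IL-23 engage TYK2. It stood at 66.3 and 57.8 CPM with *Dyrk1a* shRNA and at 34.6 and 43.3 CPM with harmine, and no library of one group reached the other. The log2 fold change was 0.67 (SE 0.20, 95% interval 0.24 to 1.09), a fold of 1.59, with an unadjusted p of 0.00409 that ranked 63 among all genes and an adjusted p of 0.689 with edgeR. Of the 10 genes 0 passed the adjusted test, beside 0.00943% of all genes, with DESeq2's Wald test calling 0, and 1 had an unadjusted p under 0.05, beside 5.73% of all genes. The groups did not overlap for 3 of 10, beside 41.0% of all genes. *Il12rb1* was the 1 gene higher with *Dyrk1a* shRNA, beside 20.2% of all genes, and *Il6ra* (log2 fold change -0.18, SE 0.19) and *Il6st* (-0.23, SE 0.29) were the 2 lower, beside 20.8%. The median log2 fold change was -0.03, beside 0.00 over all genes, and 3 of 10 were above 0, beside 49.9%. Without harmine replicate 1 the median was -0.18, and without harmine replicate 2 it was 0.11.

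For *Il7r* the direct comparison of the treatments gave -0.17 (SE 0.22, 95% interval -0.64 to 0.30), with the lower harmine library at 38.8 CPM lying between the *Dyrk1a* shRNA libraries at 38.4 and 43.6 CPM. *Il2rb*, *Il2rg* and *Il4ra* gave 0.00, 0.01 and 0.05, with intervals that reached 0.44, 0.38 and 0.48 to either side, so that differences of that size remain possible. *Il2ra*, *Il21r* and *Il15ra* gave -0.15, -0.05 and -0.01, with SEs of 0.27, 0.20 and 0.32, and their groups overlapped.

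The composition of the transcripts moved with part of these values. *Il7r* had the lowest GC content of the 10 genes (40.5% of its longest transcript) and *Il12rb1* the highest (58.4%). Across 9990 genes with a length and sequence, the fold change followed GC content by Spearman's rho of 0.33 for *Dyrk1a* shRNA against control and 0.41 for *Dyrk1a* shRNA against harmine, but 0.00 for harmine against control, a description over genes that share libraries. Genes in the same bin of GC content as *Il7r* (of 10 bins) had a median log2 fold change of -0.23 with *Dyrk1a* shRNA and 0.00 with harmine, both against control, and 8.11% and 5.21% of them lay below *Il7r*. Genes in the bin of *Il12rb1* had a median of 0.17 for *Dyrk1a* shRNA against harmine, with 94.8% below it, and of 0.18 against control, with 82.4% below it. When trends with length and GC content were removed from each library, *Il7r* stood at -0.61 with harmine (unadjusted p = 0.00949 with edgeR) and at -0.57 with *Dyrk1a* shRNA (0.0168), and *Il12rb1* at 0.48 for *Dyrk1a* shRNA against harmine (0.0146). For *Il12rb1* against control the value was then 0.22 with an unadjusted p of 0.293, less than its log2 fold change of 0.45 before.

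**Figure D4:**
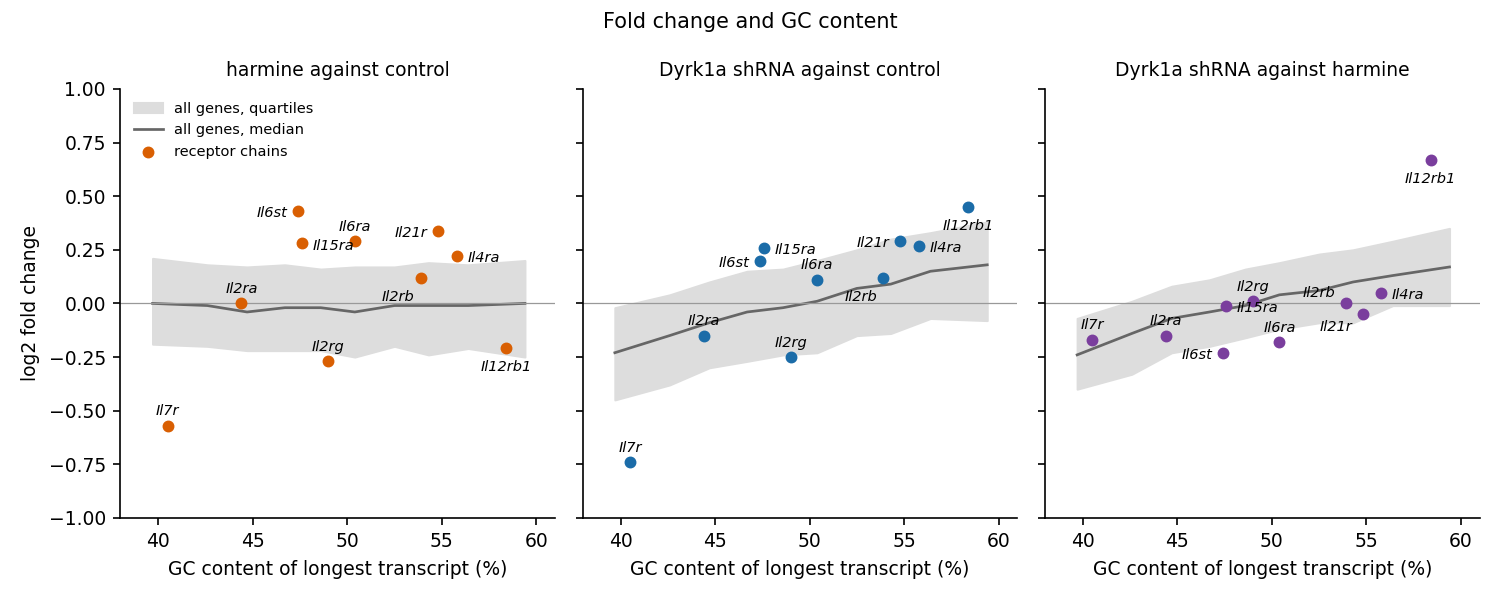
Log2 fold change of each receptor chain gene against the GC content of its longest transcript, one panel per comparison, over the median (line) and quartiles (shading) of all genes in 10 bins of GC content. The line rises with GC content for *Dyrk1a* shRNA, from -0.23 to 0.18 against control, and stays near 0 for harmine against control.

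Ratios between chains of the same receptor, taken within each library, do not depend on the scaling of libraries. They are not free of the trend with GC content. For *Dyrk1a* shRNA against control, genes in the GC bin of *Il2rg* had a median log2 fold change of -0.02. Those in the bins of *Il2rb*, *Il21r* and *Il4ra* had medians of 0.09, 0.09 and 0.15. The part of this trend in the ratios was not tested. *Il2rb* to *Il2rg*, the signalling pair of the IL-2 and IL-15 receptors, stood at 0.972 and 1.21 per kb in the controls, 1.46 and 1.38 with harmine and 1.40 and 1.41 with *Dyrk1a* shRNA. All 4 treated libraries lay above both controls. *Il4ra* to *Il2rg*, the pair of the IL-4 receptor on lymphocytes, stood at 0.545 and 0.853 in the controls, 0.912 and 1.00 with harmine and 0.995 and 0.980 with *Dyrk1a* shRNA, and *Il21r* to *Il2rg* at 0.341 and 0.508, 0.583 and 0.680, and 0.688 and 0.537. In these 3 ratios, which share *Il2rg*, the treated libraries lay above both controls by a margin narrower than the gap between the controls. The other ratios over *Il2rg* went otherwise. *Il2ra* to *Il2rg* stood at 1.80 and 2.72 in the controls, 2.46 and 2.87 with harmine and 2.32 and 2.46 with *Dyrk1a* shRNA, and both treatments overlapped with control. *Il7r* to *Il2rg* stood at 0.0948 and 0.149, 0.0877 and 0.103, and 0.0813 and 0.0882 in the same order, overlapping for harmine and below both controls for *Dyrk1a* shRNA. Of all 45 pairs of the 10 genes, 53.3% did not overlap between control and harmine, 53.3% between control and *Dyrk1a* shRNA and 37.8% between the treatments. The pairs reuse the same 10 genes, and the share over pairs of all tested genes was not computed. Whether these shares are unusual is therefore not known.

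*Il2ra* to *Il2rb* stood at 1.85 and 2.25 in the controls, 1.68 and 2.08 with harmine and 1.66 and 1.74 with *Dyrk1a* shRNA, so that harmine overlapped with control and *Dyrk1a* shRNA lay below it. *Il6ra* to *Il6st* ranged from 7.73 to 10.3 per kb over the 6 libraries, with both treatments overlapping control, and the ligand-binding chain exceeded gp130 in every library. *Il4ra* to its neighbour *Il21r* ranged from 1.45 to 1.82, at 1.60 and 1.68 in the controls, 1.56 and 1.48 with harmine and 1.45 and 1.82 with *Dyrk1a* shRNA.

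Several receptor genes varied together over the 6 libraries, whatever the group. On log2 CPM Pearson's r was highest between *Il6ra* and *Il6st* (0.97), *Il2rb* and *Il4ra* (0.94) and *Il4ra* and *Il21r* (0.89). These are descriptions over 6 libraries that share depth, groups and the spread between the controls. The share of all tested gene pairs with such values was not computed, so whether they are unusual is not known. Other pairs went the opposite way, with *Il2rg* at -0.62 with *Il6ra*, -0.61 with *Il6st*, -0.48 with *Il2rb* and -0.47 with *Il4ra*. The highest r of *Il7r* with another of the 10 was 0.71, with *Il2rg*, and that of *Il12rb1* was 0.37, with *Il15ra*. Among all tested genes, the patterns most like that of *Il7r* were those of *Procr* (0.993), *Alox8* (0.985) and *Hivep2* (0.984), and 109 genes exceeded 0.9. Those most like *Il12rb1* were *Rnd1* (0.999), *Mroh1* (0.996) and *Vat1* (0.993), with 59 genes over 0.9.

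The ligands of these receptors were for the most part barely transcribed. Of 20 ligand genes 6 were tested, and *Il7*, *Il15* and *Il27* had no count in any library, which allows up to 3 counts in each. Among the tested ligands *Osm* ranged from 74.2 to 97.9 CPM over the 6 libraries and *Lif* from 28.6 to 58.7 CPM. *Il21*, a gamma chain cytokine made by helper T cells, was at 37.0 and 65.0 CPM in the controls, 74.8 and 95.4 with harmine and 55.6 and 55.2 with *Dyrk1a* shRNA. Both harmine libraries were above all others, with log2 fold changes of 0.77 against control (SE 0.24, unadjusted p = 0.00625, adjusted p = 0.837 with edgeR) and, for *Dyrk1a* shRNA against harmine, of -0.62 (SE 0.22). *Il2* was far lower, at 3.14 and 4.22, 7.15 and 6.60, and 3.83 and 3.24 CPM in the same order, with log2 fold changes of 0.92 (SE 0.51) for harmine against control and -0.96 (SE 0.42) for *Dyrk1a* shRNA against harmine. No ligand passed the adjusted test in any comparison, and the median log2 fold changes of the 6 were 0.11, -0.01 and -0.13 for harmine against control, *Dyrk1a* shRNA against control and *Dyrk1a* shRNA against harmine, the order used for the medians and counts below. Of the 6, 3, 3 and 2 were above 0, where 47.5%, 48.3% and 49.9% of all genes were.

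Partner chains outside the 10 genes were tested for 6 of 10, with medians of 0.17, 0.23 and 0.15, with 4, 5 and 5 above 0 and none passing. *Il12rb2*, with which *Il12rb1* forms the IL-12 receptor, was at 97.9 and 154 CPM in the controls, 96.0 and 105 with harmine and 152 and 124 with *Dyrk1a* shRNA, giving 0.45 (SE 0.21, unadjusted p = 0.0475 with edgeR) for *Dyrk1a* shRNA against harmine. The controls alone spanned all of these values except the lower harmine library. In this comparison 20.2% of all genes were higher without overlap, as both chains of that receptor were, and *Il12rb2* was named for its small p. *Il27ra*, which joins gp130 in the IL-27 receptor, gave 0.31 (SE 0.18) for *Dyrk1a* shRNA against control. Class II receptor chains, for interferons and the IL-10 family, were tested for 6 of 8, with medians of 0.00, 0.00 and 0.06, with 3, 3 and 4 above 0 and none passing.

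Downstream of the receptors, all 11 Janus kinases and STAT factors were tested and none passed, with medians of -0.02, 0.09 and 0.15 and 5, 9 and 10 of the 11 above 0. For *Dyrk1a* shRNA against control, *Stat5a* and *Stat5b*, the STAT factors of IL-2 and IL-7, gave 0.62 (SE 0.25, unadjusted p = 0.0235 with edgeR) and 0.44 (SE 0.21). *Jak3* gave 0.39 (SE 0.24) there. The groups overlapped for *Stat5a*, at 210 and 142 CPM with *Dyrk1a* shRNA against 86.7 and 143 in the controls. With harmine against control the same genes gave 0.34, 0.29 and 0.22 in that order. Of 16 feedback inhibitors, among them the SOCS genes, none passed, the medians were -0.05, 0.08 and 0.08, and 6, 11 and 10 were above 0. *Socs2* gave -0.75 (SE 0.26, unadjusted p = 0.0131) and *Socs4* -1.32 (SE 0.50) for *Dyrk1a* shRNA against control in the same test.

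The remaining lists also held no gene that passed. Receptor adaptors (9 of 10 tested) had medians of -0.11, 0.04 and 0.02, with 2, 5 and 5 above 0. Genes for receptor shedding and sorting (8 of 8) had medians of -0.01, 0.07 and 0.04, with 3, 4 and 5 above 0, and *Hgs*, which sorts ubiquitinated receptors in endosomes, gave 0.61 (SE 0.25) for *Dyrk1a* shRNA against control. Known STAT5 target genes (16 of 16) had medians of -0.10, -0.07 and 0.09, with 7, 7 and 10 above 0, and *Bcl2l1*, a survival gene, gave -0.54 (SE 0.25) with harmine against control. Known STAT3 target genes (12 of 12) had medians of -0.06, 0.19 and 0.14, with 6, 7 and 9 above 0. Of 9 transcription factors known to act on *Il7r*, medians were 0.12, 0.06 and -0.05, with 7, 6 and 3 above 0. *Klf2*, a factor of resting T cells named for its small p, gave -0.37 (SE 0.20) for *Dyrk1a* shRNA against control. It gave -0.43 (SE 0.18) for *Dyrk1a* shRNA against harmine, but 0.06 (SE 0.19) for harmine against control. *Gfi1* and *Runx3* gave 0.31 (SE 0.22) and 0.26 (SE 0.19) for *Dyrk1a* shRNA against control. A link of these factors with the *Il7r* values was not tested. Markers of Treg cells, which share *Il2ra* with activated cells, summed to 675 to 780 CPM in the controls, 808 to 922 with harmine and 663 to 673 with *Dyrk1a* shRNA without *Il2ra* among them, and their part in the *Il2ra* values was not tested. *Tnfrsf18* was the highest of these markers, and it and *Ctla4* made up most of the sum, at 431 and 373 CPM in harmine replicate 2. For harmine against control the tested markers differed. *Lrrc32* gave 0.64 (SE 0.25), *Ctla4* 0.29 (SE 0.18), *Tnfrsf18* 0.20 (SE 0.21), *Ikzf2* 0.11 (SE 0.25) and *Nrp1* -0.18 (SE 0.42). *Foxp3*, the defining one, had too few counts to be tested. It stood at 3.94 and 1.76 CPM in the controls, 2.29 and 3.21 with harmine and 2.42 and 1.56 with *Dyrk1a* shRNA, so that both treatments overlapped with or fell below control.

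**Figure D5:**
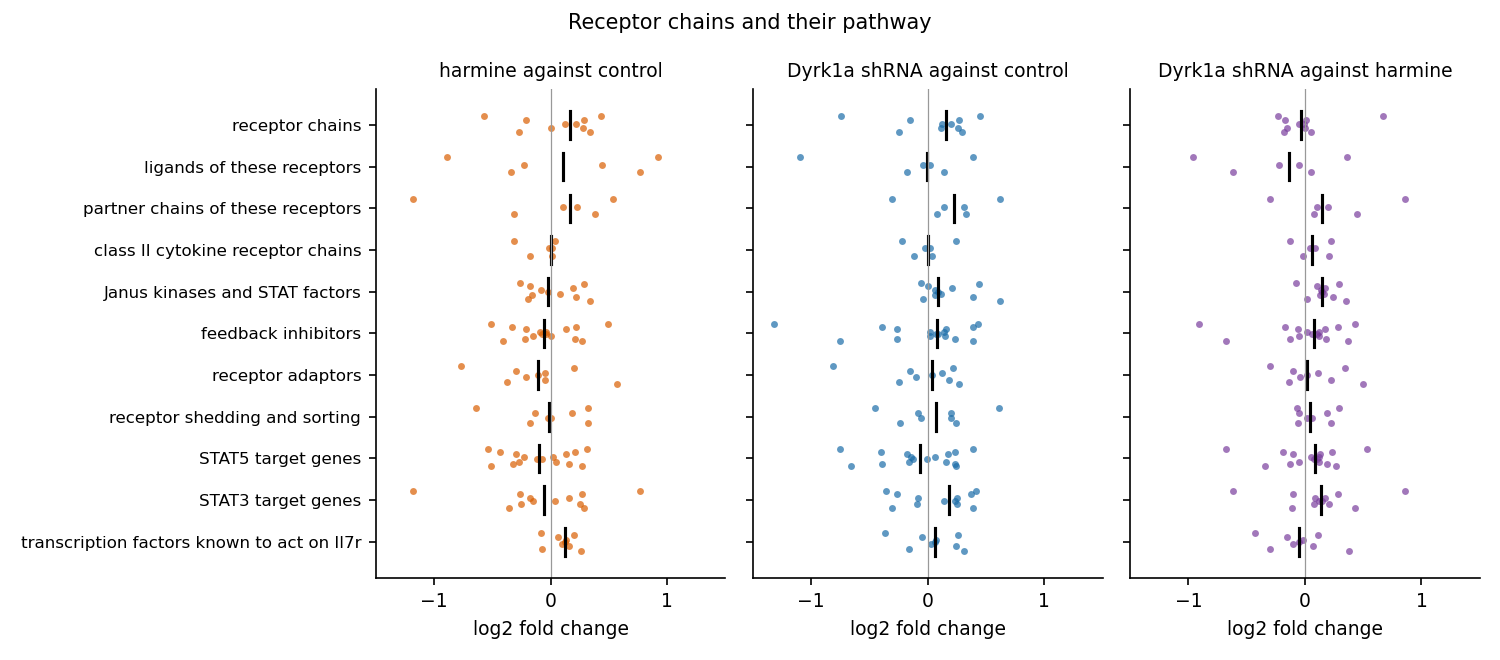
Log2 fold changes of the tested genes of each pathway list in the 3 comparisons, with a point per gene and a bar at the median of the list, the receptor chains at the top. The medians lie between -0.13 and 0.23, and no gene passed after adjustment.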

How the data were processed

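RNAseq of 6 libraries, 2 in each of 3 groups taken from the sample titles, was analysed from 1 deposited table of genes. Reads had been aligned by the authors to mm10 and turned by RSEM into expected counts, which were deposited unnormalized. TopHat2 (2.0.13), RSEM and DESeq appear in the submitters' processing notes. The deposited table held no other sample column.

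Rounded expected counts entered the quasi-likelihood test of edgeR (4.0.16, under R 4.3.3) as 1 robust fit of 3 group means. Libraries were scaled by TMM, genes were kept by filterByExpr at a count of at least 10, and two-sided p-values were adjusted by Benjamini-Hochberg over 10607 genes (threshold 0.05). SEs came from the fold change and its F statistic. Levels are TMM-scaled CPM, per kb of merged GENCODE M21 exons (GRCm38) where genes are compared, for which 93.0% of symbols matched. Low-count intervals are exact Poisson at 95% and cover counting error only. Coding stretches were read from the GENCODE M21 transcripts. The test was tested on simulated data.

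All 10 receptor genes are named, with up to 3 genes of each pathway list and comparison by smallest unadjusted p and the 3 genes most correlated with *Il7r* and *Il12rb1*. The members and lists were chosen with earlier results of these data known. Alternatives changed scaling, filter, depth, test (DESeq2 1.42.0), the replicate block, GC and length trends, and the libraries entered.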

Additional observations from a re-analysis of the deposited data

How the results depend on the processing

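No receptor gene passed the adjusted threshold under any alternative in any comparison. *Il7r* stayed below 0 against control, at -0.83 to -0.34 with harmine and -0.97 to -0.50 with *Dyrk1a* shRNA, and *Il12rb1* stayed above 0 for *Dyrk1a* shRNA against harmine, at 0.48 to 0.84. The number of genes called over the whole table was small and unsteady, and the cause was not tested. For harmine against control it was 1, and 20 with no filter, 0 with a minimum count of 50, 0 with only the 2 groups compared, 3 with the DESeq2 Wald test, and 1 to 291 when a library was left out, the highest without control replicate 2. For *Dyrk1a* shRNA against control it was 2, and 28 with no filter, 5 with only the 2 groups compared and 1 to 439 when a library was left out, again the highest without control replicate 2. For *Dyrk1a* shRNA against harmine it was 1, and 3 with library size scaling, 22 with no filter, 0 with thinned libraries, 0 with GC and length trends removed, 2 with the Wald test, 4 with only the 2 groups compared and 0 to 5 when a library was left out.

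With the replicate number as a block the genes called were 0, 2 and 0, and the receptor genes with an unadjusted p under 0.05 were 1, 2 and 1 in the 3 comparisons, *Il12rb1* joining *Il7r* in the second. The labels do not say that the numbers pair the libraries, and deviations of same-numbered libraries correlated by 0.12, 0.02 and 0.24 (harmine with control, *Dyrk1a* shRNA with control, *Dyrk1a* shRNA with harmine). The count of receptor genes at an unadjusted p under 0.05, which was 1 in each comparison, was 0 with the Wald test and 0 to 4 when a library was left out for harmine, 2 with no filter and 0 to 2 for *Dyrk1a* shRNA against control, and 0 with thinned libraries and 0 to 1 for *Dyrk1a* shRNA against harmine. Without control replicate 2 the 4 genes for harmine were *Il4ra*, *Il21r*, *Il6ra* and *Il6st*, and those for *Dyrk1a* shRNA were *Il4ra* and *Il21r*, without *Il7r*. The median of the 10 genes for *Dyrk1a* shRNA against control was -0.04 to 0.27 when a library was left out, the lowest without control replicate 1, and it was 0.01 to 0.27 for harmine and -0.18 to 0.11 for *Dyrk1a* shRNA against harmine.

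The signs of some values turned, and no receptor value had passed in any setting. For harmine, *Il2ra* was 0.02 with no filter and 0.01 with thinned libraries. For *Dyrk1a* shRNA against control, *Il2rb* was -0.02 with GC and length trends removed. For *Dyrk1a* shRNA against harmine, *Il2rb* was 0.02 and *Il15ra* 0.00 with library size scaling, *Il2rg* was -0.03 with thinned libraries, *Il2rb* was 0.00 with only the 2 groups compared, and *Il4ra* was -0.12, *Il7r* 0.04 and *Il15ra* 0.02 with the trends removed. When a library was left out, *Il2ra* ran from -0.25 to 0.21 for harmine. For *Dyrk1a* shRNA against control, *Il2ra* ran from -0.35 to 0.06, *Il15ra* from -0.02 to 0.53, *Il6ra* from -0.13 to 0.35 and *Il6st* from -0.21 to 0.65. For *Dyrk1a* shRNA against harmine, *Il2ra* ran from -0.36 to 0.09, *Il2rb* from -0.07 to 0.07, *Il2rg* from -0.09 to 0.13, *Il4ra* from -0.12 to 0.25, *Il7r* from -0.38 to 0.08, *Il15ra* from -0.30 to 0.26 and *Il21r* from -0.25 to 0.20. A lone library left in a group is assumed to vary like the others. *Il15ra* had no value at a minimum count of 50, and its counts of 10 to 45 per library limit its precision.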

Other observations

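The ratio of *Il2ra* to *Il7r* within a library, chosen after its values were seen, stood at 19.0 and 18.2 per kb in the controls, 28.1 and 27.8 with harmine and 28.5 and 27.9 with *Dyrk1a* shRNA. Replicates of this ratio differed by at most 0.06 on the log2 scale, the smallest such difference among the 45 pairs of receptor genes, and the treated groups lay 0.58 (harmine) and 0.60 (*Dyrk1a* shRNA) above control on that scale. The counting intervals of *Il7r* are far wider than that closeness, at 47.1 to 71.5 CPM and 64.9 to 98.0 CPM in the controls. Genes in the GC bins of *Il2ra* and *Il7r* had median log2 fold changes of -0.09 and -0.23 for *Dyrk1a* shRNA against control. For harmine against control these medians were -0.04 and 0.00. The part of GC content in this ratio was not tested.

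Some partner chains, also named after their values were seen, differed strongly between the 2 controls. *Il13ra1*, which joins *Il4ra* in the type II IL-4 receptor, stood at 8.16 and 49.0 CPM in the controls, 30.7 and 38.6 with harmine and 36.0 and 21.2 with *Dyrk1a* shRNA. *Il23r*, the partner of *Il12rb1* for IL-23, stood at 1.25 and 9.29 CPM in the controls.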
